A study of Mus musculus with 24 samples.

Results

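Dimethylation of lysine 4 of histone H3 (H3K4me2) was mapped by chromatin immunoprecipitation with sequencing in 4 mouse small cell lung cancer lines, and each library was deposited as a list of broad peaks. These 4 lists were taken by antibody and cell line label from the 24 samples of the series, of which 14 have a peak list. The lines were kept at early passage from tumours of the RPP mouse model, so deletion of Rb1, Trp53 and Rbl2 is common to both groups. The control lines, 159-1 and 1014, carry the control guide RNA sgControl and are wild type for Kdm6a; the mutant lines, 236L and 236R, derive from sgKdm6a tumours, in which the guide RNA targets Kdm6a. All were untreated and were collected 24 h after plating in ultra-low attachment plates. Each line is a culture of its own, but the labels do not say whether 236L and 236R come from separate animals, so a p-value here reflects the spread between cultures only. The title of the series is about KDM6A and switching between subtypes of this cancer, and the comparison asks where H3K4me2 differs by Kdm6a genotype.

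H3K4me2 is found at active and poised promoters and at enhancers. It is placed by the COMPASS family of methyltransferases, of which KMT2C and KMT2D work in complexes that contain KDM6A, and it is removed by KDM1A and by the KDM5 enzymes. KDM6A itself removes methyl groups from lysine 27 of histone H3, whose trimethylation (H3K27me3) by Polycomb repressive complex 2 silences developmental genes. Promoters that carry both H3K4 methylation and H3K27me3 are called bivalent, and those of transcription factors with many CpG dinucleotides are the classic examples.

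The sequences at 5 gene starts marked in different lines are shown as examples of the starts compared further on. Each sequence below is the 250 bases before a start listed by RefSeq on GRCm38.p6 (mm10), with every CpG in capitals. Dkk2, which encodes a secreted regulator of WNT signalling, and Vax1, a homeobox gene of the developing eye, were marked in both mutant lines and in neither control line. Slc26a9, which encodes an epithelial chloride transporter, and Wfikkn1, which encodes a secreted protein that binds growth factors of the TGF-beta family, were marked in the control lines alone. Ccl9, which encodes a chemokine of myeloid cells, was marked in 236L alone. They are among the starts with the widest gaps in their class and were named after their values were seen. They lie at chr3:132085042-132085291, plus strand; chr19:59170398-59170647, minus strand; chr1:131743772-131744021, plus strand; chr17:25880859-25881108, minus strand; and chr11:83578637-83578886, minus strand.
Dkk2: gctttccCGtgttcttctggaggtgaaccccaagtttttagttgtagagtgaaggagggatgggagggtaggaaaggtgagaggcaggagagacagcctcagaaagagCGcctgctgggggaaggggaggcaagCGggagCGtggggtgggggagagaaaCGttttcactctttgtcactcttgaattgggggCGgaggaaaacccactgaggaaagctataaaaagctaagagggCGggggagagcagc
Vax1: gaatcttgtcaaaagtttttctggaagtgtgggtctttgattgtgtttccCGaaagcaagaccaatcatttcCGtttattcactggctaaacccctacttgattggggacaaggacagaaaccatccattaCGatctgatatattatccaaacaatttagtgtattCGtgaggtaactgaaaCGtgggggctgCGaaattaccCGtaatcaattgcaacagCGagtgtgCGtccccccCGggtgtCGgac
Slc26a9: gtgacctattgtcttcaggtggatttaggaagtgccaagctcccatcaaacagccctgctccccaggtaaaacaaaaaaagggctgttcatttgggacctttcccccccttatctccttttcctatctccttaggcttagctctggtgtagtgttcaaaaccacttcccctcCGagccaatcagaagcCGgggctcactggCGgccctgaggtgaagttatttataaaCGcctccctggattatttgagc
Wfikkn1: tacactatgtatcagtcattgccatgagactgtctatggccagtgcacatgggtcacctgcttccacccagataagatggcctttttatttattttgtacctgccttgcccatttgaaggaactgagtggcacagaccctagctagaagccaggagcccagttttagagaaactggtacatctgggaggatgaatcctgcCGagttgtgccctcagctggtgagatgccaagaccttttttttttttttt
Ccl9: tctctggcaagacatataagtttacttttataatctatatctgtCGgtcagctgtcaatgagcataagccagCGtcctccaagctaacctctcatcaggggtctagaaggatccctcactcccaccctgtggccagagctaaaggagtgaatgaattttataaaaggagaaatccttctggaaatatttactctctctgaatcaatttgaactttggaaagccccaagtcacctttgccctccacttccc

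The first pair holds 7 and 11 CpGs in these 250 bases, the second 4 and 1, and the Ccl9 start 2. Within 2.5 kb of the start, H3K4me2 covered 3.63 and 3.56 kb at Dkk2 and 3.90 and 3.23 kb at Vax1 in 236L and 236R, and 0 kb in both control lines. At Slc26a9 the library labelled 159-1 had 3.34 kb and that labelled 1014 had 3.10 kb, with 0 kb in both mutant lines. The Wfikkn1 start had 4.07 and 3.70 kb in the control libraries, 0 kb in 236L and 0.831 kb in 236R. The whole 5.00 kb around the Ccl9 start was covered in 236L and nothing of it in any other line.

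The deposited names of the 2 control lists name the other line than the sample titles do, so these libraries are called labelled 159-1 and labelled 1014. Bins of 1 kb with H3K4me1 in 159-1 and not in 1014 were marked by H3K4me2 in 20.8% of cases in the library labelled 159-1 and in 27.8% in that labelled 1014, and bins in the reverse state in 15.6% and 12.8%. The share of peak length on chromosome 19 went the same way, at 3.15% in the H3K4me2 library labelled 159-1 and 2.17% in that labelled 1014, against 1.14% and 2.80% for H3K4me1 and 1.29% and 3.05% for KDM6A in 159-1 and 1014. These values go with the deposited names and against the titles. H3K27me3 was mixed: its bins of 159-1 alone were marked in 1.91% and 1.38% in the libraries labelled 159-1 and 1014 and its bins of 1014 alone in 2.93% and 3.48%, which goes with the titles, while its share on chromosome 19 was 0.541% in 159-1 and 4.03% in 1014, which goes with the deposited names. Both lines are controls, and a swap of the 2 libraries leaves the groups as they are.

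Of the bins marked in either of 2 lines, the control libraries shared 69.3%, 236R shared 57.2% and 58.8% with them, and 236L shared 42.4% and 41.4%. The mutant lines shared 49.3% with each other, less than 236R shared with either control line. H3K4me1, in libraries of its own, placed 236L apart as well: 236R shared 44.2% and 39.8% of bins with 159-1 and 1014, and 236L shared 14.0% and 14.6% with them and 16.5% with 236R. Counts that rest on both mutant lines are therefore given with and without 236L.

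Marker genes were checked for the labelled cell type. All 5 neuroendocrine markers reported (Insm1, Chga, Syp, Calca and Ncam1) had at least 1 kb of H3K4me2 in every line, with a summed cover of 43.3, 48.1, 20.8 and 36.8 kb in labelled 159-1, labelled 1014, 236L and 236R, the order used for every set of 4 values below. Of 6 myeloid markers, 4, 4, 6 and 2 had at least 1 kb, with a sum of 17.6, 18.0, 76.4 and 12.2 kb. Ptprc, the pan-leukocyte gene for CD45, had 0, 0, 16.1 and 0.784 kb, and Adgre1, the gene for the macrophage antigen F4/80, had 0, 0, 4.97 and 0 kb. Lymphoid markers summed to 11.5, 10.2, 6.93 and 6.78 kb, fibroblast markers to 14.0, 13.7, 15.4 and 18.6 kb, endothelial markers to 11.2, 8.54, 9.82 and 8.64 kb and lung epithelial markers to 23.9, 20.2, 20.4 and 21.8 kb, with Col3a1 at 0 in every line. Thus 236L had the most cover at myeloid and the least at neuroendocrine markers. In bulk chromatin a share of cells of another type and a mark within the tumour cells cannot be told apart.

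The lists held 58368, 56481, 47141 and 45544 peaks, which covered 85.2, 87.6, 76.1 and 73.7 Mb. Mean cover was 86.4 ± 1.74 Mb (SD, n = 2) in the control lines and 74.9 ± 1.74 Mb (SD, n = 2) in the mutant lines. The difference of -11.5 Mb had p = 0.33 in an exact two-sided permutation test, the smallest p that 2 lines against 2 can give. Files with peaks and no read counts leave the depth unknown, and a library of fewer reads can also give fewer peaks. Median peak width was 974, 1077, 1014 and 1160 bp. Peaks of 5 kb or wider made up 13.7%, 13.7%, 18.0% and 11.5% of the cover, so the mutant lines lay on opposite sides of the controls in broad domains. Bins within 2.5 kb of a listed gene start were 41.4%, 40.3%, 48.6% and 48.2% of the marked bins, and bins in gene bodies away from a start 36.1%, 35.9%, 31.5% and 28.0%. By these shares both mutant lists lay nearer to gene starts, with no overlap between the groups.

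Over all lines 127970 bins of 1 kb were marked, that is, covered by peaks over at least 50% of their length. H3K4me2 marked 40266 of them (31.5%) in all 4 lines, 13073 (10.2%) in both control lines and neither mutant line, and 3373 (2.64%) in both mutant lines and neither control line. The largest class of difference was 236L alone with 20360 bins (15.9%), followed by the control-only bins and by 11720 (9.16%) marked in all lines but 236L. A further 6967 bins were marked in 236R alone.

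**Figure D1:**
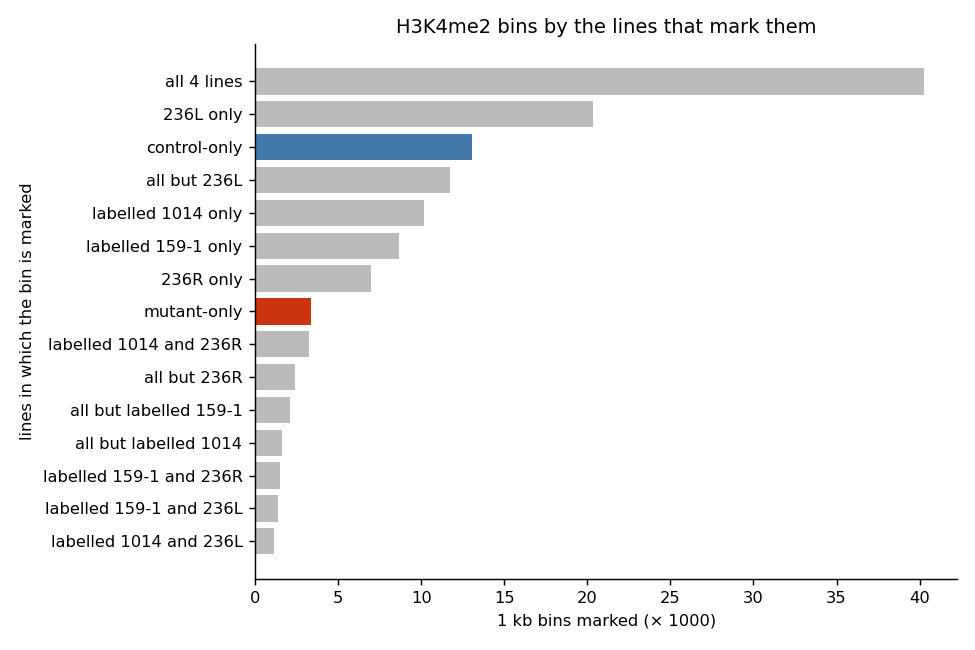
Number of 1 kb bins (horizontal axis, in units of 1000 bins) by the lines whose H3K4me2 list marks them (vertical axis); 1 bar per pattern, with control-only in blue and mutant-only in red. The 20360 bins of 236L alone outnumber the 13073 control-only and the 3373 mutant-only bins.

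The control-only and mutant-only bins differed in where they lay. Near a listed gene start were 10.7% of control-only bins, 40.5% of mutant-only bins, 21.2% of bins of 236L alone and 64.8% of bins marked in all lines. Control-only bins formed 10732 runs of adjacent bins, of which 8954 were a single bin, and mutant-only bins formed 2900 runs, of which 2531 were a single bin. Peaks at control-only bins had a median −log10 q at the 55.0th and 52.5th percentile of their own lists, and those at mutant-only bins at the 68.5th and 66.3rd percentile in 236L and 236R, against 79.1 to 84.5 for bins marked in all lines. These are ranks of the authors' peak values within a list and cannot be compared as signal between lists.

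The long runs are at named genes. The longest control-only run covered 12.1, 11.4, 0 and 0 kb of chr11:113176001-113189000, inside the non-coding gene 2610035D17Rik. The next, at the Aopep and Fancc genes (chr13:63293001-63306000), held 11.8, 11.4, 0 and 1.94 kb and contains the microRNA genes Mir23b, Mir27b and Mir24-1. Further runs were at Ccdc33 and Stra6 with 7.86, 7.68, 0 and 1.56 kb and at Nuak2, a kinase gene, with 6.33, 6.19, 0 and 0.320 kb. In each of these 6 runs both mutant lines had at most 1.94 kb, and both control lines at least 6.16 kb.

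The longest mutant-only run, chrX:103476001-103484000, lies at Xist and its antisense gene Tsix, with 0, 0, 7.02 and 6.84 kb. Xist is the RNA that silences an X chromosome in female cells. Uty, the homologue of Kdm6a on chromosome Y, had 3.27, 3.30, 0 and 0 kb, so a sex chromosome difference runs with the genotype and cannot be told apart from it in these lines. On autosomes alone 288 of the 298 genes above and 1384 of the 1395 below that are described next were left. The other mutant-only runs lay at Eya1 with 0, 0, 5.11 and 6.00 kb, at Ccnd2, which encodes cyclin D2, with 0.714, 0.634, 6.81 and 6.60 kb, and at Olig2, a neural bHLH factor, with 0.311, 0.448, 4.31 and 4.92 kb. A pair of runs at the start of Zeb2, a factor of epithelial-mesenchymal transition, covered 5.00 and 4.98 kb and 5.00 and 5.00 kb in the mutant lines.

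Other marks in the same lines separate the classes of bins. At control-only bins H3K4me1, a mark of enhancers, was present in 82.3% and 84.6% in the control lines and still in 62.9% in 236R, but in 15.0% in 236L. H3K27me3 was near absent from them, at 0.184% to 1.36% over the 4 lines, and KDM6A marked 22.5% in 159-1 and 18.8% in 1014. At mutant-only bins H3K27me3 was present in 28.4% and 39.2% in the control lines and in 19.5% and 21.5% in 236L and 236R. Their H3K4me1 was 19.6% and 18.4% in the control lines against 50.3% and 64.9% in the mutant lines, and KDM6A marked 2.88% and 1.39%. Over all bins marked in any line, H3K27me3 stood at 4.48%, 8.20%, 5.28% and 3.52% and KDM6A at 19.9% and 16.8%. At bins marked in 236L alone H3K27me3 stood at 5.86% and 11.6% in the control lines and KDM6A at 1.00% and 0.712%. At bins of 236R alone KDM6A stood at 1.97% and 0.933%, and H3K27me3 at 11.5% in 159-1. So the mutant-only bins overlapped with H3K27me3 of each control line more often than either of these classes, which are also unmarked in both controls. KDM6A was mapped in the control lines alone, and its share was low in all 3 classes that lack H3K4me2 there. H3K27me3 lists differ in length between lines, and no test was made of these shares.

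**Figure D2:**
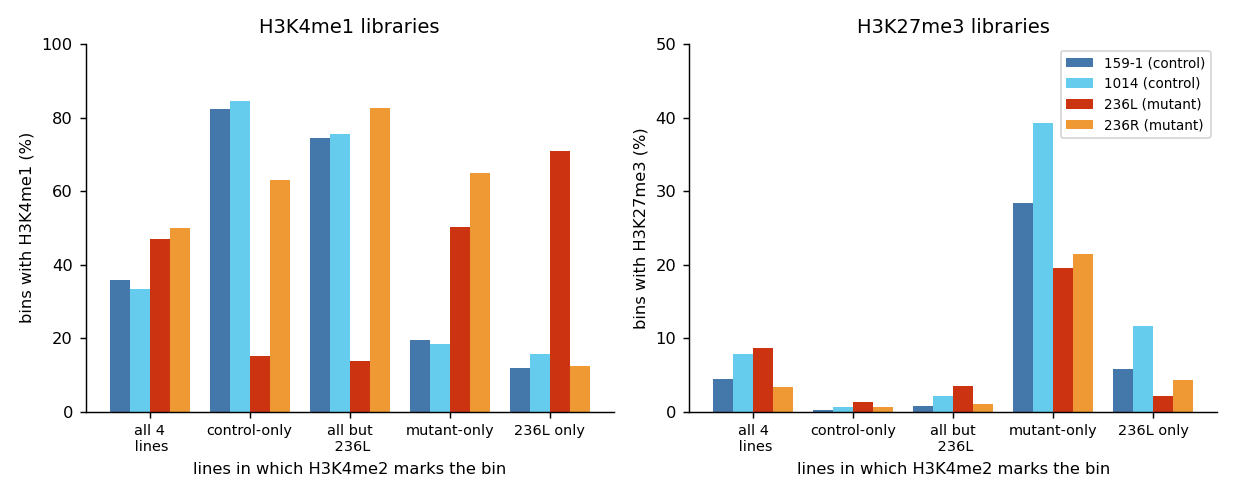
Share of bins (vertical axes, %) with H3K4me1 (left) or H3K27me3 (right) in each line, for 5 patterns of H3K4me2 (horizontal axis); 1 bar per library, blue for control and red or orange for mutant lines. Control-only bins carry H3K4me1 in 62.9% of cases in 236R and 15.0% in 236L, and mutant-only bins carry H3K27me3 in 28.4% and 39.2% in the control lines.

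Cover was next summed for 21887 protein-coding genes, each over a window of its body extended by 10 kb in both directions. A gene counts as above where the lowest mutant line exceeds the highest control line by at least 2 kb, and as below in the reverse case. There were 298 genes above (1.36%) and 1395 below (6.37%). Leaving out 236L gave 582 (2.66%) and 2113 (9.65%), and leaving out 236R gave 2251 and 2520, so the share of above genes among the separated genes moved from 17.6% to 47.2% where 236L alone stood for the mutants. Without labelled 159-1 the counts were 469 and 2010 and without labelled 1014 they were 457 and 2112. By the definition, leaving out a line can only add genes to either side, here and in the lists further on. The same holds for control-only and mutant-only bins and starts, so higher counts there are no sign of stability. With the lists trimmed to equal covered length by peak rank, 440 genes were above and 803 below (35.4% above).

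limma on log2(kb + 1), fitted over the 16453 genes with a mean of at least 1 kb, called 0 genes (0%) at an adjusted p of 0.05, and its lowest adjusted p was 0.134. At an unadjusted p of 0.05 it listed 687 higher (4.18%) and 1946 lower genes (11.8%). With cover scaled to the same total in each line the split turned to 1347 higher and 1016 lower, still with no adjusted call, and the median log2 difference over genes moved from -0.05 to 0.12. The fit without 236R called 326 higher and 244 lower genes, and rests on 236L as the lone mutant line, which is assumed to vary like the controls. The genes below are therefore described by their cover in each line, as separated and not as tested differences.

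The 12 genes with the widest gap upward on the log2 scale, with no overlapping windows, were Hoxa11, Hoxa6, Hoxd11, Otx2, Map2k6, Foxb1, Hoxc4, Emx2, Sox14, Ccnd2, Sox17 and Hoxc11. All but Map2k6, a kinase of the p38 pathway, and Ccnd2 encode transcription factors of development. Hoxa11, a factor of limb and urogenital patterning, had 0, 0, 8.88 and 8.00 kb (limma log2 difference 3.24 ± 0.17 SE, adjusted p = 0.134). Otx2, a homeobox factor of the anterior brain, had 0, 0, 6.74 and 5.82 kb, and Sox17, a factor of endoderm and endothelium, had 0, 0, 3.74 and 3.46 kb. Map2k6 had 0.271, 0.344, 7.10 and 7.34 kb. In these genes the control lines had at most 0.714 kb. The groups do not overlap there because the genes were picked by that gap. Emx2, a factor of the developing cortex and urogenital tract with 0.506, 0, 7.14 and 6.10 kb, lies on chromosome 19, where the library labelled 1014 has little cover, and the part of that in its value was not tested.

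These windows carried H3K27me3 in the control lines. Hoxa11 had 22.9, 23.7, 21.7 and 22.4 kb of it, in the order 159-1, 1014, 236L and 236R, so in the mutant lines its H3K4me2 stood beside H3K27me3 that was nearly as long as in the controls. Otx2 had 22.1, 27.1, 20.4 and 11.6 kb. At Ccnd2 the values were 28.7, 45.1, 6.76 and 19.9 kb and at Map2k6 8.14, 15.8, 0 and 3.08 kb, with less in both mutant lines. Of the 298 genes above, 76.5% and 84.2% had at least 1 kb of H3K27me3 in the control lines and 54.4% and 66.4% in 236L and 236R, against 16.2%, 25.4%, 14.9% and 16.7% of all genes. At 135 of them (45.3%) both mutant lines had at least 2 kb less H3K27me3 than both control lines, which held for 6.43% of all genes. Only genes with H3K27me3 in both control lines can meet this, and no set matched for that was compared. Over all genes H3K27me3 was at least 2 kb less in both mutant lines at 1407 and at least 2 kb more at 93. H3K4me1 was at least 2 kb above at 174 of the 298 genes (58.4%), beside 5.30% of all genes.

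The 12 genes with the widest gap downward were Stra6, Sipa1l2, Acsm2, Zfp750, Uty, Med27, Cfap299, Krt87, Eng, LOC115488789, Gnao1 and Egflam. Stra6, which encodes a retinol transporter, had 24.9, 21.8, 1.20 and 3.22 kb, and Sipa1l2 had 27.3, 25.5, 4.42 and 5.02 kb. Gnao1, which encodes a G protein subunit abundant in neurons, had 22.4, 19.1, 4.69 and 4.21 kb. Sipa1l2 and Gnao1, like Nr3c2 and Cdh1 named further on, lie on chromosome 8. That chromosome held 5.68%, 5.67%, 4.94% and 4.39% of the cover, and the part of this in their values was not tested. Zfp750, a factor of epidermal differentiation, had 4.61, 3.34, 0 and 0 kb, and Eng, the TGF-beta co-receptor endoglin, had 3.49, 3.13, 0.092 and 0.072 kb. H3K27me3 was listed at 0 kb in all 4 lines at Sipa1l2, Acsm2, Zfp750, Uty, Med27, Eng and LOC115488789, while Stra6 had 9.27 kb and Krt87 3.28 kb of it in 236L alone. Egflam had 12.0 kb of H3K27me3 in 236L and 6.21 kb in 236R and 0 kb in the control lines, and Cfap299 had 7.21, 9.79, 0 and 0.359 kb. Over all 1395 genes below, 4.66%, 11.5%, 28.8% and 8.53% had at least 1 kb of H3K27me3, beside 10.2%, 17.7%, 21.7% and 12.8% of the 7285 genes with at least 5 kb of H3K4me2 in both control lines. It was thus most frequent in 236L in both sets.

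**Figure D3:**
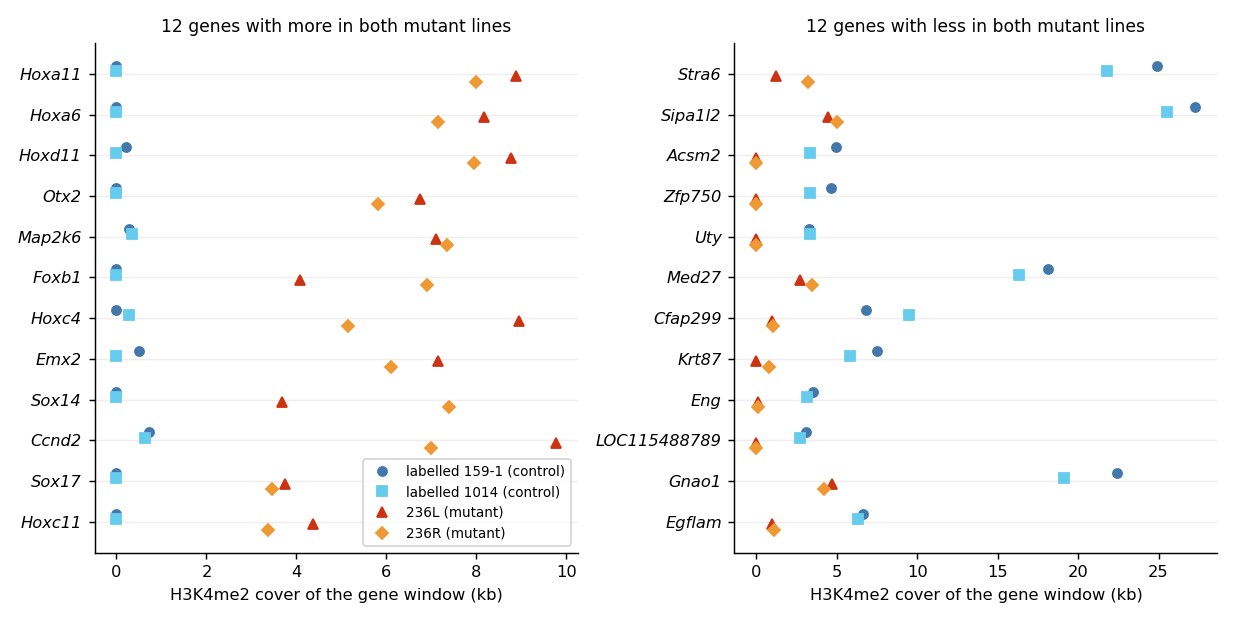
H3K4me2 cover of the gene window (horizontal axes, kb) in each line for the 12 genes with the widest gap in each direction (vertical axes); 1 point per library, circles and squares for the control libraries, triangles and diamonds for 236L and 236R. On the left the control lines sit at 0 to 0.714 kb, and on the right the highest mutant value is the 5.02 kb of Sipa1l2 in 236R.

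H3K4me1 was also shorter in both mutant lines at 11 of these 12 genes, while Uty had 0 kb in every line. At Stra6 it covered 75.5, 84.9, 0 and 27.4 kb, at Sipa1l2 66.8, 82.8, 21.3 and 24.8 kb and at Gnao1 54.2, 80.8, 3.10 and 12.6 kb. Of the 1395 genes below, 830 (59.5%) also had at least 2 kb less H3K4me1 in both mutant lines, beside 7.45% of all genes and 17.0% of the 7285 genes with at least 5 kb of H3K4me2 in both control lines. The genes below were long, with a median gene body of 67.1 kb against 17.2 kb for all genes and 23.4 kb for the genes above. The share of genes below was 1.93% under 10 kb of length, 4.85% from 10 to 50 kb, 11.0% from 50 to 100 kb, 18.7% from 100 to 200 kb and 26.1% at 200 kb or more, and that of genes above was 1.45%, 0.932%, 1.47%, 2.22% and 3.03%. A longer window leaves more room for a gap of 2 kb, and the part of window length in these shares was not tested. KDM6A covered at least 1 kb in 96.1% and 94.9% of the genes below, beside 94.5% and 90.7% of the same 7285 genes.

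The HOX genes, which specify position along the body axis and lie in 4 clusters, had 28 of 39 members above and 1 below, Hoxb1, beside 1.36% and 6.37% of all genes. Without 236L the counts were 30 and 1, without 236R 28 and 9, and at equal covered length 28 were above. Their windows overlap, so neighbours share peaks and are not separate measurements. By cluster, 10 of 11 Hoxa, 9 of 9 Hoxc and 8 of 9 Hoxd genes were above, but 1 of 10 Hoxb genes, Hoxb13, which is named after its value was seen.

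Over the whole Hoxa window of 126 kb (chr6:52145367-52270880) H3K4me2 covered 3.78, 1.86, 39.5 and 34.3 kb. The Hoxc window (chr15:102911131-103046856) had 1.54, 4.00, 26.4 and 22.8 kb and the Hoxd window (chr2:74658225-74775142) 3.56, 2.67, 26.6 and 27.5 kb. In each of these 3 clusters both mutant lines lay far above both controls. The Hoxb window (chr11:96184316-96378254) had 78.4, 80.3, 34.7 and 92.3 kb, so there both controls and 236R were widely marked and 236L was the line with less. H3K27me3 in that cluster was 64.7, 86.0, 131 and 67.8 kb, the longest in 236L. In the other clusters both controls had more H3K27me3 than both mutant lines, with 112, 125, 90.0 and 111 kb over Hoxa, 131, 136, 99.7 and 125 kb over Hoxc and 97.6, 116, 40.8 and 72.3 kb over Hoxd.

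**Figure D4:**
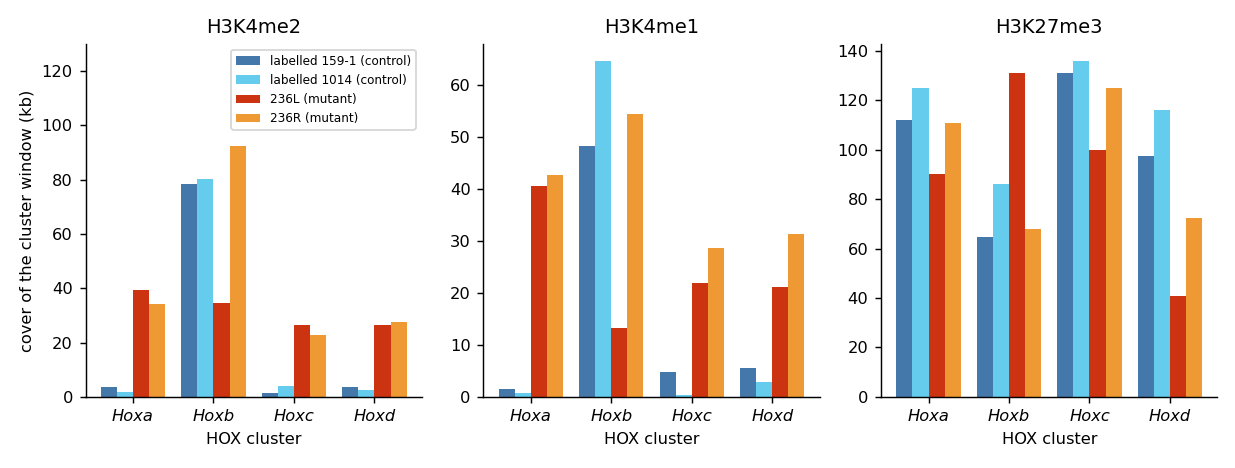
Cover (vertical axes, kb; the scales differ between panels) of the windows of the 4 HOX clusters (horizontal axes) by H3K4me2, H3K4me1 and H3K27me3; 1 bar per library, blue for control and red or orange for mutant lines, and the labels in question are those of the H3K4me2 control libraries only. Hoxa, Hoxc and Hoxd had 1.54 to 4.00 kb of H3K4me2 in the controls and 22.8 to 39.5 kb in the mutant lines, while Hoxb had least in 236L at 34.7 kb.

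The list of 70 other homeobox genes also holds Hand1, a bHLH factor, which was above with 0.291, 0.681, 3.88 and 4.72 kb. In the list as a whole 26 were above and 1, Barx2, was below (35 and 2 without 236L, 31 above at equal covered length). Over all genes 1.36% were above and 6.37% below. Evx2, at the end of the Hoxd cluster, had 1.69, 0, 8.03 and 7.36 kb. En1, a factor of the midbrain-hindbrain boundary, had 1.52, 1.45, 7.65 and 7.19 kb, and Otp, a hypothalamic factor, had 2.90, 2.53, 9.59 and 8.34 kb. Barx2, a factor of epithelial and muscle development, had 11.0, 9.19, 2.48 and 5.98 kb. All of these count as above or below, so their groups are separate by definition. The T-box genes had 5 of 15 above and 0 below, among them Tbx20, a cardiac factor, with 0.643, 0.579, 7.39 and 5.67 kb. Of the PAX genes 3 of 9 were above, with Pax2, a kidney and eye factor, at 3.32, 2.14, 8.01 and 9.15 kb, and 2 of 5 GATA genes, with Gata4, an endoderm and heart factor, at 4.83, 6.74, 10.3 and 10.7 kb.

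Some factor families held members in both directions, beside 1.36% of all genes above and 6.37% below. Of 12 LIM homeobox genes 3 were above and 3 below: Isl1, a motor neuron factor, had 1.03, 0.866, 4.43 and 6.93 kb, while Lmx1b, a limb and serotonergic neuron factor, had 28.0, 31.5, 10.4 and 14.0 kb. Lhx3, a pituitary factor, had 5.12, 5.64, 1.83 and 1.07 kb. SOX genes had 3 above and 2 below of 18, and Sox6, long and on the lower side, had 30.5, 39.9, 6.99 and 15.8 kb. Forkhead genes had 6 above and 5 below of 36. Foxf2, a mesenchymal factor, had 3.32, 3.90, 9.65 and 8.27 kb, and Foxp1, a widely expressed factor, had 60.0, 62.8, 30.3 and 38.2 kb. Foxf2 had 19.5 and 20.3 kb of H3K27me3 in the control lines, and Foxp1 had 0 kb of it in every line. Nuclear receptors had 3 above and 3 below of 43 (6.98% each), and the share below was near that of all genes. Esrrg, an orphan receptor, had 0.280, 1.52, 13.8 and 6.63 kb, and Nr3c2, the mineralocorticoid receptor, had 13.5, 13.3, 5.64 and 5.71 kb.

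Neurod1, Pou2f3 and Yap1 each give their name to a subtype of small cell lung cancer, and of these Pou2f3 alone was separated between the groups. Neurod1, a neuronal bHLH factor, had 2.82, 4.50, 3.52 and 4.06 kb, with the mutant lines inside the range of the controls. Yap1, a co-activator of the Hippo pathway, had 2.26, 3.26, 2.72 and 2.23 kb. Pou2f3, the tuft cell factor, was above with 1.05, 2.06, 4.68 and 6.50 kb, beside 63.3, 93.2, 8.22 and 38.2 kb of H3K27me3. The rest of the tuft cell list did not go with it. In that list 1 of 13 was above, Pou2f3 itself, and 1 below, beside 1.36% and 6.37% of all genes. The member below was Chat, the acetylcholine synthesis enzyme, at 7.92, 6.79, 2.03 and 3.94 kb.

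Neuroendocrine genes had 0 of 34 above and 7 below, beside 1.36% and 6.37% of all genes. Without 236L 8 were below, beside 9.65% of all genes, and at equal covered length 3, beside 803 of 21887 genes. Pcsk2, a prohormone convertase, had 15.0, 19.1, 2.97 and 10.2 kb. Calca, which encodes calcitonin and CGRP, had 8.90, 9.07, 2.30 and 5.81 kb, and Elavl3, a neuronal RNA-binding protein, had 7.62, 8.29, 4.22 and 4.76 kb. In this list 236L had at least 2 kb less than every other line at 12 members, beside 5.09% of all genes, and the summed cover was 307, 352, 218 and 323 kb. By that sum 236R lay between the control lines. The neuronal bHLH and partner factors had 8 of 28 above and 3 below: Ebf3 had 5.03, 3.14, 10.7 and 14.9 kb, Bhlhe22 had 1.94, 2.05, 5.86 and 5.62 kb, and Neurog3, the factor of endocrine progenitors, had 8.99, 10.3, 2.87 and 4.98 kb.

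Axon guidance genes had the largest share below of the 32 lists, 13 of 37 (35.1%) with 0 above, beside 6.37% of all genes. At equal covered length 7 were below, beside 803 of 21887 genes. The list holds long genes, with a median body of 206 kb. Of its 30 members of at least 100 kb 9 were below (30.0%), beside 21.7% of all genes of that length. Nav2, a neuron navigator gene, had the widest gap of the list with 65.3, 64.5, 22.7 and 26.8 kb. Plxna4, a semaphorin receptor subunit, had 20.8, 25.7, 4.14 and 7.98 kb. Ephb2, an ephrin receptor, had 32.2, 26.8, 7.17 and 12.7 kb, and Nav1, a microtubule-associated neuron navigator, had 38.1, 37.3, 24.6 and 24.8 kb. H3K4me1 was less in the mutant lines there too, at 85.2, 75.2, 2.61 and 38.7 kb at Plxna4. Of the BCL2 family 3 of 16 were below and 0 above, beside 6.37% of all genes below. Bcl2 itself, which is anti-apoptotic, had 14.0, 14.2, 5.33 and 5.05 kb, and of the pro-apoptotic members Bik had 9.66, 9.63, 4.27 and 5.97 kb and Bmf 15.4, 15.0, 11.4 and 10.8 kb.

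**Figure D5:**
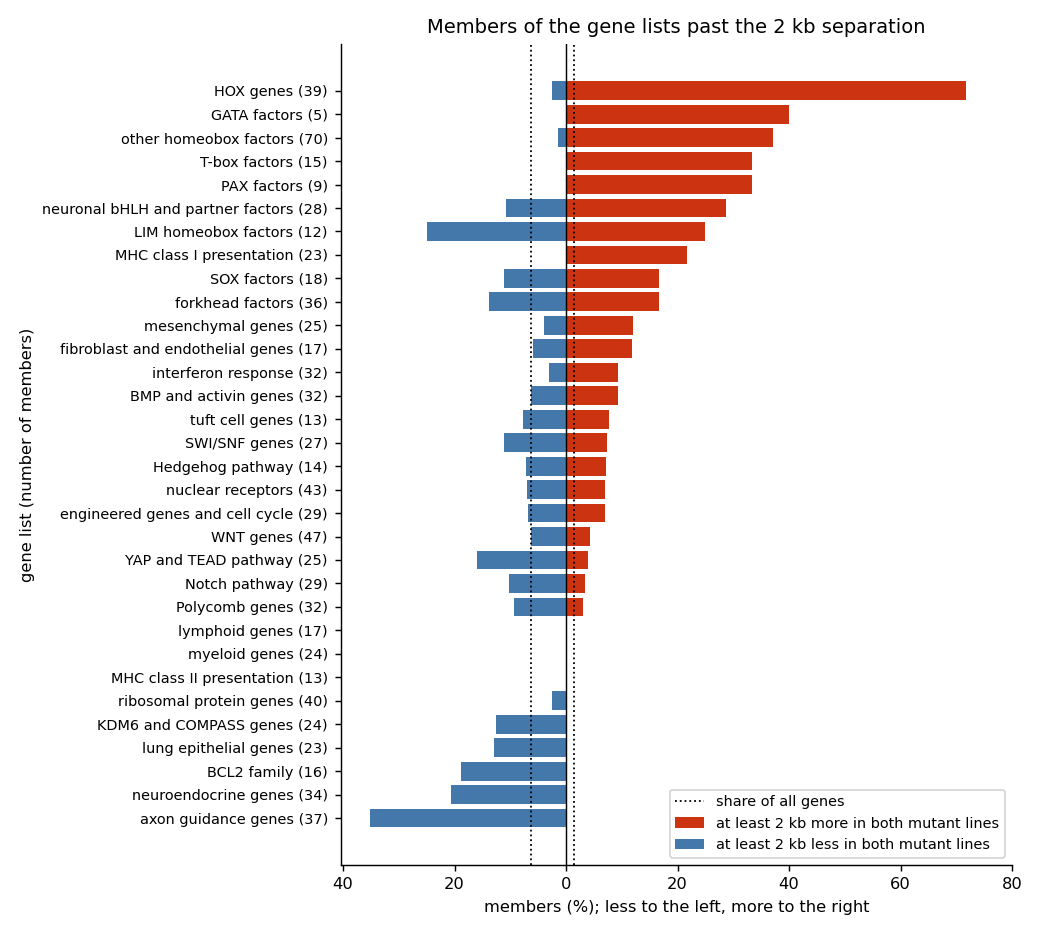
Share of list members (horizontal axis, %) at least 2 kb above (red, to the right) or below (blue, to the left) in both mutant lines, for 32 gene lists with the number of members in brackets (vertical axis); dotted lines mark the 1.36% and 6.37% of all genes. HOX genes have the longest red bar (71.8%) and axon guidance genes the longest blue bar (35.1%).

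Each signalling list held between 2 and 5 separated members, beside 1.36% of all genes above and 6.37% below, and the shares below of the Notch and of the YAP and TEAD lists were over that of all genes. Notch genes had 1 above and 3 below of 29: the co-activator gene Maml2 had 7.26, 5.76, 17.9 and 11.2 kb, its relative Maml3 71.3, 76.1, 35.5 and 41.1 kb, and the ligand gene Dll1 12.1, 12.2, 6.87 and 8.99 kb. YAP and TEAD genes had 1 above and 4 below of 25, with Tead1, a partner of YAP, at 33.3, 43.1, 16.3 and 24.1 kb and Nf2, an upstream regulator, at 15.4, 10.4, 4.53 and 5.50 kb. Of 47 WNT genes 2 were above and 3 below, 32 BMP and activin genes had 3 (9.38%) and 2, and 14 Hedgehog genes 1 and 1. Bmp4, a ligand, had 1.01, 1.08, 3.67 and 5.50 kb, and Inha, the inhibin subunit, had 14.9, 14.8, 2.35 and 6.74 kb. Mesenchymal genes had 3 above (12.0%) and 1 below of 25, where Sparc, a matrix protein, had 1.49, 1.52, 7.58 and 4.27 kb and Cdh1, the epithelial cadherin, had 30.7, 23.3, 8.06 and 11.5 kb.

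H3K4me2 cover at genes for chromatin regulators was read in the same way, and over all genes 1.36% were above and 6.37% below. Shares below were 12.5%, 9.38% and 11.1% in the KDM6 and COMPASS, Polycomb and SWI/SNF lists, each over that of all genes. Shares above were 0%, 3.12% and 7.41%. Kdm6a had 3.10, 4.38, 6.01 and 4.66 kb in its window and was not separated by 2 kb. A guide RNA mutation need not remove H3K4me2, and KDM6A was mapped in the control lines alone, so these lists hold no check of the mutation. Of 24 KDM6 and COMPASS genes 0 were above and 3 below, namely Uty, the H3K4 demethylase gene Kdm1a with 7.56, 9.41, 2.92 and 4.32 kb, and its relative in function Kdm5b with 9.10, 7.78, 4.65 and 5.07 kb. Polycomb genes had 1 above and 3 below of 32, with the PRC1 subunit gene Phc2 at 30.2, 28.4, 15.0 and 18.8 kb. SWI/SNF genes had 2 above and 3 below of 27, with the core subunit gene Smarcb1 at 14.3, 11.5, 6.07 and 7.19 kb and the ATPase gene Smarca2 at 5.21, 4.19, 8.44 and 7.44 kb. Among the genes deleted in the model, Rb1 was below with 8.26, 12.8, 5.13 and 5.33 kb, while Trp53 had 7.74, 7.89, 6.77 and 6.54 kb and Rbl2 5.05, 5.22, 5.63 and 6.23 kb, neither separated by 2 kb.

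Antigen presentation genes of MHC class I had 5 of 23 above and 0 below, 5 and 2 without 236L. Over all genes 1.36% were above and 6.37% below, and 2.66% and 9.65% without 236L. Tap1, a peptide transporter subunit, had 5.94, 5.51, 12.4 and 9.87 kb, its partner Tap2 had 3.49, 3.43, 7.49 and 6.45 kb, and Psmb8, an immunoproteasome subunit, had 4.32, 3.87, 8.98 and 7.79 kb. These 3 genes are neighbours on chromosome 17 and share peaks, so the 5 above are not separate measurements. Psmb9, also on chromosome 17 and named after its value was seen, was above with 2.45, 2.47, 6.30 and 4.53 kb. All have more in 236L than in 236R, and 236L is also the line with 76.4 kb at myeloid markers, whose part in these values was not tested. H3K27me3 at Tap1 was 7.05, 22.9, 0 and 0 kb. H2-Q6, a class I heavy chain gene of a near-identical family whose reads may not be assigned with certainty, had 1.43, 1.49, 5.12 and 4.22 kb. Interferon response genes had 3 above and 1 below of 32, with Gbp4, a guanylate-binding protein, at 0, 0, 3.46 and 3.10 kb and Ifi35 at 15.3, 15.3, 11.8 and 11.7 kb. Of 40 ribosomal protein genes 0 were above and 1, Rps7, was below with 6.46, 6.08, 3.93 and 3.97 kb.

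Class II genes, which present antigen on macrophages, dendritic cells and B cells, had 0 of 13 above or below. At 9 of them 236L had at least 2 kb more than every other line, beside 8.30% of all genes. The myeloid list was alike, with 0 of 24 above or below in both mutant lines and 20 of 24 in 236L at least 2 kb over every other line. Its summed cover was 73.9, 70.6, 247 and 57.8 kb. Spi1, the master factor of myeloid cells, had 4.61, 3.83, 21.8 and 3.55 kb, and Csf1r, the receptor for the macrophage growth factor, had 1.20, 1.21, 7.47 and 0.719 kb. The lymphoid list had 1 of 17 genes in that state and sums of 37.3, 32.4, 40.1 and 30.3 kb.

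Across the genome 1817 genes (8.30%) had at least 2 kb more in 236L than in every other line and 1115 (5.09%) at least 2 kb less, while 236R had 216 (0.987%) and 571 (2.61%). The genes of this paragraph are named after their values were seen. The widest gaps upward in 236L were at Syk, a kinase of immune receptors, with 1.27, 1.06, 32.7 and 1.48 kb, at Tcf4, a bHLH factor, with 20.4, 38.4, 66.8 and 29.1 kb, and at Lcp1, the leukocyte plastin gene, with 1.33, 1.49, 29.3 and 1.81 kb. Rbm47, an RNA-binding protein gene, Tcf7l2, a WNT effector, Vmp1 and Nfix came next, before Cd44, an adhesion receptor gene, with 0.994, 0, 22.9 and 1.76 kb. Below every other line, 236L had its widest gap at Hoxb3 with 47.4, 59.3, 19.5 and 59.4 kb, followed by Msi2, an RNA-binding protein gene, with 83.0, 81.6, 16.7 and 41.1 kb. Further down were the immune adaptor gene Skap1 beside the Hoxb cluster with 42.7, 44.5, 4.88 and 25.4 kb, and Rbfox3, the neuronal splicing factor NeuN, with 46.5, 37.8, 8.76 and 26.5 kb. In 236R the widest gap upward was at Prox1, a homeobox factor of neuroendocrine and lymphatic cells, with 14.4, 23.4, 15.0 and 36.2 kb, and the widest downward at Zmiz1, a transcriptional co-regulator, with 55.0, 44.7, 55.2 and 21.9 kb. Syk, Lcp1 and Cd44 were thus high in 236L alone, with 236R near the controls, while Tcf4 was high in every line and highest in 236L.

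Gene starts split in the other direction from gene windows. RefSeq lists a start for 17492 of the protein-coding genes in the table used, and a start was marked where peaks covered at least 1 kb within 2.5 kb of it. Starts were marked in all 4 lines at 10408 genes (59.5%), in the mutant lines alone at 264 (1.51%), in the control lines alone at 89 (0.509%) and in 236L alone at 469. An unmarked start can still hold cover short of 1 kb, so these classes do not set presence against absence. With a limit of 0.5 kb, 182 starts were mutant-only and 111 control-only. Of 22 HOX genes with a listed start 14 were mutant-only and 0 control-only, and of 46 other homeobox genes 11 and 0. Thus mutant-only starts outnumbered control-only starts, while mutant-only bins were fewer than control-only bins. Without 236L there were 376 mutant-only and 132 control-only starts, against 10340 and 15446 bins, and without 236R there were 733 and 248 starts, against 23733 and 24793 bins.

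CpGs were counted at each listed start, and no test was made of the differences between classes. In the 300 bases from 250 before to 50 after the start, the median number of CpGs was 22 at starts marked in all lines, 12 at mutant-only starts, 5 at control-only starts, 5 at starts of 236L alone, 2 at unmarked starts and 14 over all listed starts. At least 10 CpGs were present in 58.3% of mutant-only and 15.7% of control-only starts, and in 58.3% of all starts. By this measure the mutant-only starts lay near the whole and the control-only starts below it. Starts marked in labelled 159-1 alone (17.9%), labelled 1014 alone (18.8%) and 236L alone (18.3%) were as low. In both control lines at least 1 kb of H3K27me3 lay in the gene window for 66.7% of the mutant-only starts, 5.62% of the control-only starts and 14.8% of all starts. This share was 66.4% at starts marked in all lines but labelled 159-1, 40.2% in 236R alone and 34.3% in 236L alone. A high share was thus not particular to mutant-only starts. The motif CAGCTG, an E-box and the same on both strands, occurred in 30.3% of control-only, 14.0% of mutant-only and 15.0% of all listed starts in the same 300 bases. It was also frequent in other small classes, with 26.9% of starts marked in labelled 159-1 alone, 27.1% in labelled 1014 alone, 22.2% in 236L alone and 36.8% in labelled 159-1 and 236R, so it was not particular to control-only starts. A match is a stretch of letters and not a bound site.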

How the data were processed

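Cells were fixed for 10 min, and peaks were deposited per library, never pooled. Per the submitters' processing notes, the authors used the build mm10, Bowtie2 2.4.2 as aligner and MACS3 3.0.0a7 as peak caller; its threshold and control track and the handling of duplicates are not given in the labels or files. Each deposited broad peak has its position, a score, a fold enrichment (a linear ratio) and −log10 p and q values made by the authors. Depth is unknown, since no read counts were used.

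Peaks of each list on the autosomes, X and Y were merged (at most 0.0976% of a list lay on contigs). Marked bins, covered kb per gene and marked starts were computed with Python 3.11.15 (numpy 2.4.6, pandas 2.3.3); gene positions and starts come from RefSeq tables of GRCm38.p6, which is mm10, and 79.9% of protein-coding genes had a listed start. Cover was compared with limma 3.58.1 in R 4.3.3 on log2(kb + 1), for genes with a mean of at least 1 kb, with Benjamini-Hochberg adjustment over all genes tested, and total cover with an exact permutation test. The code was tested on simulated data. The members, the 32 gene lists (848 of 853 entries matched) and the tests were chosen with earlier results of these data known. Genes were named by rule: 12 per direction by gap on the log2 scale without overlapping windows, up to 4 per list and direction, the genes at the 6 longest runs, and Kdm6a, Rb1, Trp53, Rbl2, Neurod1, Pou2f3 and Yap1; exceptions are stated, and 1 further gene of the rule and of the marker list is not reported here. Alternatives were a q limit, equal covered length, autosomes, other windows, separations, bin shares, start limit, pseudocount, filter and scaling, and each line left out. The input libraries were not analysed here.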

Additional observations from a re-analysis of the deposited data

How the results depend on the processing

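No paired analysis was possible because the labels give the lines no pairing across genotypes. For the main results, 56 alternative values stayed on their side of the threshold or within 1.5 times, 32 counts moved by more and 2 went from 0 to calls. With the q limit, equal covered length and other windows, no named gene past the 2 kb separation changed the sign of its difference. Leaving out a line cannot change that sign, and scaling, pseudocount and filter were not checked for it. Gene body alone gave 117 genes above, and 50 kb flanks 688 above and 2715 below. Separations of 1 and 5 kb gave 753 and 48 above and 2571 and 415 below. Equal covered length gave 803 genes below and 8624 control-only bins. Bins marked at any cover numbered 25459 control-only and 5432 mutant-only, and at 100% cover 5590 and 1910. Leaving out each line in turn gave 457 to 2251 genes above, 2010 to 2520 below, 15446 to 24793 control-only and 4988 to 23733 mutant-only bins, 132 to 248 control-only and 376 to 733 mutant-only starts, and 0 to 326 higher and 0 to 244 lower genes by limma; the highest count of genes in each direction, and every adjusted limma call, came without 236R. Both ends of every protein-coding gene, added after the data were seen, gave 154 control-only ends. The difference in total cover stayed negative with the q limit and on autosomes. Leaving out a line could not reverse it, since the groups do not overlap in total cover. Depth limits all of this: without read counts a missing peak cannot be told from a shallow library.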

Other observations

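The longest H3K4me2 peak was the same in all 4 lines, 87.1, 87.1, 87.0 and 87.1 kb at chr8:123537380-123624472 as listed in the library labelled 159-1. Control-only bins were 15.6% of the marked bins of chromosome 8, and mutant-only bins 1.19%. The share of cover on chromosome 8 was 5.68%, 5.67%, 4.94% and 4.39%, and on chromosome 3 it was 4.74%, 5.02%, 5.01% and 3.96%, lowest in 236R in both. On chromosome X mutant-only bins were 5.02% and control-only bins 4.60% of the marked bins.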
